A study of Mus musculus with 14 samples.

Results

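The genes described here take glucose and fructose into the liver cell and carry them to pyruvate: Slc2a2, Khk, Gpi1, Pfkl, Tpi1, Eno1, Pgk1 and Pklr. These 8 genes were named as a set, and their data are all peaks of acetylated histone H3 lysine 9 (H3K9ac) that overlap the RefSeq span of a gene extended by 10 kb on each side, here called its window. All 8 had a peak in the window in each of 12 libraries, as did 12419 of 21900 protein-coding genes. Together the windows held 32 to 47 called peaks per library. The mark was measured by ChIP-seq, sequencing of chromatin pulled down with an antibody (ab10812), in regenerating liver of male C57BL6/J mice aged 2 to 3 months. All livers were taken 12 h after partial hepatectomy (PH), the surgical removal of most of the liver, so both groups carried the operation. The series holds 6 libraries with d22 in the title and 6 with pbs, and 2 pooled inputs that were not analysed here. The study asked what delaying the hypoglycemia that follows the operation does to this mark. The labels contradict each other: the d22 libraries carry the treatment label vehicle (1/2 strength PBS), the pbs libraries and both inputs carry dextrose (22.5% in vehicle). Libraries were therefore grouped by title, every difference below is d22 minus pbs, and which group received dextrose is not stated. Whether each library of a group stands for its own animal is not stated, and p-values measure only the spread between the libraries.

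H3K9ac sits at the promoters of active genes and reaches from the start site into the gene. In hepatocytes, sugar enters by the transporter GLUT2 (Slc2a2), fructose is trapped by ketohexokinase (Khk), and the glycolytic enzymes carry the carbon to pyruvate, the last step being liver pyruvate kinase (Pklr). The transcription factor ChREBP, which is activated by sugar, binds paired E-box-like half-sites, and the liver promoter of Pklr is the classic place where such a carbohydrate response element was worked out. Pklr also has an upstream start that is used in red blood cells.

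The promoters of the 3 genes with called differences at the start site are shown because they carry different elements. Each sequence is the 250 bases before the start site in RefSeq (GRCm38.p6, the coordinates of mm10), written 5′ to 3′ along the gene's strand. Capitals mark, in Pklr, the carbohydrate response pair (CANGNG, 5 bases of any kind, CNCNTG) and, in Khk, the E-box CACGTG. Gpi1 held neither.
Pklr, liver start, chr3:89136373-89136622, plus strand: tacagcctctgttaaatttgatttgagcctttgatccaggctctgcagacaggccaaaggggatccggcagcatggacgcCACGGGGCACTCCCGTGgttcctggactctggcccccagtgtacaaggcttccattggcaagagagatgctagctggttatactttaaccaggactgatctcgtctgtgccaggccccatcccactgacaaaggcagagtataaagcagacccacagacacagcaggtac
Khk, chr5:30921309-30921558, plus strand: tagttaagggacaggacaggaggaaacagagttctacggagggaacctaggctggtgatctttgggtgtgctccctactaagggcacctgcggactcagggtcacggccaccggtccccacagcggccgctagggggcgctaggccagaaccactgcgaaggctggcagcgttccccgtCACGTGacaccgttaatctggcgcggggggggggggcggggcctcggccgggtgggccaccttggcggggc
Gpi1, chr7:34230337-34230586, minus strand: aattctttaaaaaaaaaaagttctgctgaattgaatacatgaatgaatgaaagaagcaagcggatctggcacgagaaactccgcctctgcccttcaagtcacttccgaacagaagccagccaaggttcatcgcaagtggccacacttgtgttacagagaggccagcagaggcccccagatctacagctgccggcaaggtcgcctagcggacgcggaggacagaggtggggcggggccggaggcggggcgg
Both strands were searched in the 11 RefSeq promoters of the 8 genes and in all 32817 promoters of the table. The carbohydrate response pair was found in 1 of the 11 promoters, at the liver start of Pklr from -170 to -154, and in 0.454% of all promoters. The E-box was found in 1 of the 11 promoters, in Khk from -71 to -66, and in 6.02% of all promoters. That E-box overlaps a hypoxia response core (ACGTG), which was also present in Pgk1 and in 16.6% of all promoters. The TATA box TATAAA was found in 1 of the 11 promoters, at -31 before the liver start of Pklr, and in 12.4% of all promoters. The CCAAT box was held by 5 of the 11 promoters, in 4 genes (33.8% of all promoters). The GC box GGGCGG was held by 6 of the 11, in 5 genes (32.7%). A site for the hepatocyte factor HNF1 in its full palindromic form (GTTAAT, 1 base, ATTAAC) was found in 0 of the 11 promoters and in 0.00914% of all. A form held by only 3 of 32817 promoters cannot show whether looser HNF1 sites are present, and those were not searched. All the elements above are matches of letters in a short window and not sites of binding.

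Depth ran from 6343891 to 13259411 tags per library, with 26352 to 44585 called peaks; d22 4 had the most peaks and the lowest depth, and the others had at most 30780. The share of tags that fell in peaks was 20.1% ± 3.13 for d22 and 22.9% ± 2.43 for pbs (SD, n = 6; two-sided exact permutation p = 0.115). The file headers gave tags of 48 bases for pbs 1, pbs 4 and pbs 6 and of 49 bases for the other 9 libraries, so the shorter tag occurs in pbs alone. Of the markers of liver cell types, 8 of 8 hepatocyte genes had a peak in all 12 libraries. So did 3 of 5 endothelial and 1 of 4 cholangiocyte genes, and none of the macrophage, neutrophil, lymphocyte, stellate, erythroid and skeletal muscle lists. The summed tags of the hepatocyte markers ran from 319 to 494 per 1000000 of all tags in d22 and from 475 to 648 in pbs (means 416 and 537, two-sided exact permutation p = 0.0108). Scaled by all tags in this way, gene windows in general were also lower in d22, with a median difference of -0.20 (log2) over 12419 windows. The endothelial sum ran from 15.6 to 53.8 in d22 and from 12.5 to 45.2 in pbs, and Marco, Ly6g, S100a8, S100a9, Epcam and Krt19 had no peak in any library. Whether the hepatocyte difference bears on the genes below was not tested, and in whole liver fewer cells of a type and less of the mark per cell cannot be told apart.

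Summed over the window, H3K9ac was higher in d22 at Pklr and Gpi1, and the other 6 genes did not pass. Tag counts were tested over all 12419 windows with edgeR's quasi-likelihood test, and a window was called at a Benjamini-Hochberg adjusted p under 0.05. That called 2 of the 8 genes higher and 0 lower, beside 0.797% of all windows called (0.322% higher and 0.475% lower). The differences were positive in 4 genes and negative in 4, with a median of 0.01 (log2) beside 0.00 for all windows. The 8 differences ran from -0.73 at Pgk1 to 1.26 at Pklr. An unadjusted p under 0.05 was reached by 4 of the 8 genes and by 1344 of all 12419 windows. Levels are given below as CPM, which is tags per 1000000 tags in the tested windows or regions, scaled by edgeR.

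**Figure D1:**
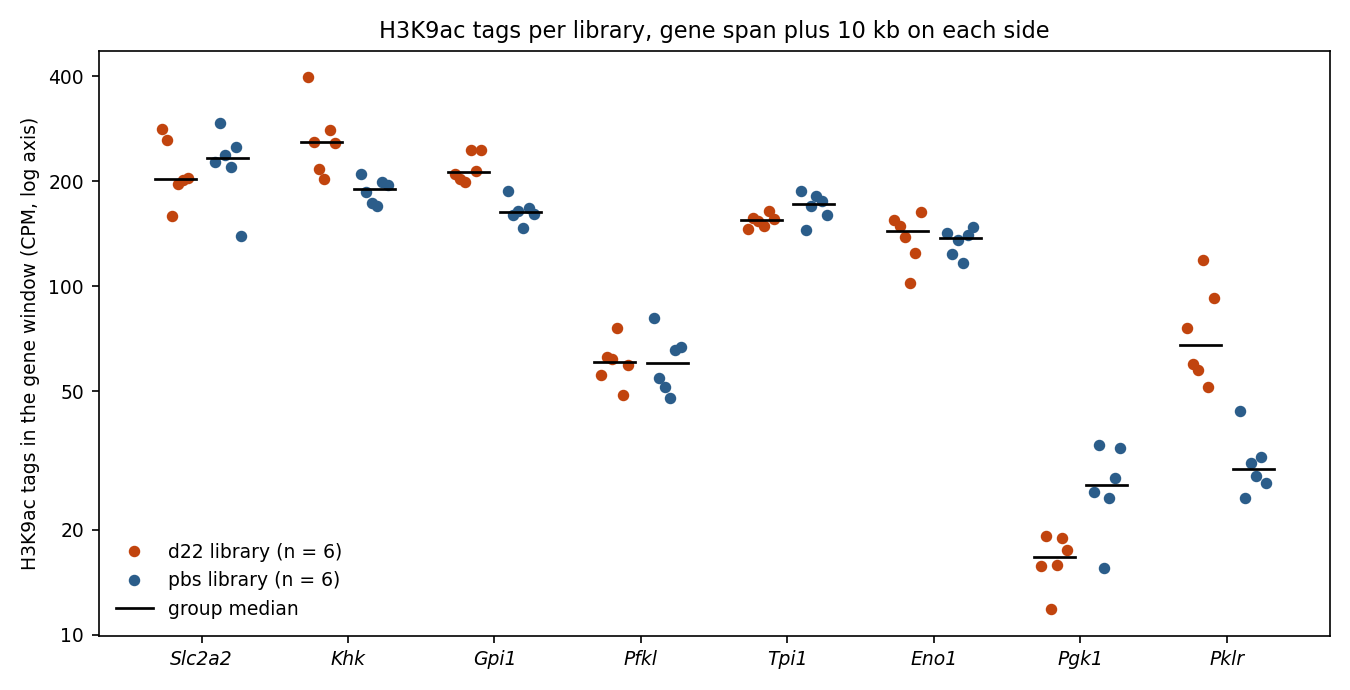
Each point is 1 library, placed by the CPM of H3K9ac tags in the gene window on a log axis, with d22 and pbs side by side and the median of 6 libraries as a bar. All d22 libraries lie above all pbs libraries at Pklr and Gpi1, while at Pgk1 the d22 points lie low and reach the lowest pbs library.

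To find where in a window a difference lay, overlapping peaks of the 12 lists were merged into 57979 regions, of which 54 fell in the 8 windows. Of these, 19 had a peak in all 12 libraries and could be tested for tags, 17 were called in 1 library and 18 in 2 to 11. The region over the start site was among the 19 for every gene. Over all 12375 regions with a peak in every library, edgeR called 1.01% (0.453% higher and 0.558% lower). At the 8 start-site regions 3 were called higher (Pklr, Khk and Gpi1) and 0 lower. At the other 11 regions 0 were called by edgeR and 1, in the gene body of Khk, had an unadjusted p under 0.05. Of all 12375 regions, 1348 (10.9%) had an unadjusted p under 0.05 by edgeR. DESeq2 did not call the Khk gene body region either (adjusted p = 0.0698).

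Slc2a2 encodes the glucose and fructose transporter GLUT2 of hepatocytes (Entrez 20526, chr3:28697903-28728361, plus strand). It had the most called peaks of the 8 genes, 127 over the 12 libraries, spread over 12 regions from before the start to past the end. The window held 159 to 283 CPM in d22 (median 203) and 139 to 294 in pbs (median 233). Both groups covered almost the same range, with pbs 6 lowest of all libraries and pbs 2 highest. The difference was -0.06 ± 0.16 (log2 ± SE, edgeR adjusted p = 0.924), and at the start region, chr3:28695095-28702193, it was -0.04 ± 0.11 (0.946). The start region was called over 4264 to 6002 bp in d22 and 5254 to 6429 bp in pbs, and 3850 bp of it were called in every library. Further into the gene, the region from 5232 to 10074 bp past the start differed by 0.18 ± 0.18 and that from 24987 to 28564 bp by 0.05 ± 0.36, neither called.

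Khk phosphorylates fructose in the committed step of its use by the liver (Entrez 16548, chr5:30921436-30931248, plus strand). Its start region, chr5:30919364-30925475, also reaches within 1 kb of the end of Emilin1, a gene of the extracellular matrix. In d22 this region held 239 to 298 CPM (median 278.5) and in pbs 181 to 213 (median 188). All 6 d22 libraries lay above all 6 pbs libraries, which was so for 0.59% of all regions tested (1.33% had no overlap in either direction). The means were 271 ± 25.3 and 193 ± 12.7 (SD, n = 6), a difference of 0.50 ± 0.08 (log2 ± SE; 1.41-fold; edgeR adjusted p = 0.00553). The called length differed little at this gene, 4697 to 5745 bp in d22 and 4103 to 5315 bp in pbs. The density within called peak was 44.4 to 58.3 CPM per kb in d22 and 34.0 to 49.4 in pbs, and 4 d22 libraries lay above the highest pbs library. That difference in density, 0.35 ± 0.12, did not pass (limma adjusted p = 0.861).

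Past the start of Khk, the region from 4572 to 8554 bp into the gene ran from 29.6 to 72.1 CPM in d22 and from 12.2 to 35.5 in pbs. Its difference was the largest of the 11 regions away from start sites, 0.86 ± 0.26, and did not pass (edgeR adjusted p = 0.166); pbs 1 and pbs 5 lay inside the d22 range. The 2 regions upstream, which lie at the ends of Emilin1, Ost4 and Agbl5, differed by -0.03 ± 0.08 and -0.06 ± 0.12. Over the whole window Khk did not pass (0.52 ± 0.13, adjusted p = 0.0934), with 203 to 397 CPM in d22 (median 259) and 169 to 210 in pbs (median 191). The highest was d22 1, the other d22 libraries lying at 203 to 282. In d22 1 a peak of 578 tags that lies mainly outside the window reaches into it, so the window sum there includes tags from beyond it; without d22 1 the difference was 0.37 (adjusted p = 0.211). The window was called without d22 4 (0.58, adjusted p = 0.0419), with only 1 kb added on each side (0.52, 0.0366) and by DESeq2 (0.52, 0.0142). The start region lost its call with the 49-base libraries alone (0.43, 0.118) and with library totals as the only scaling (0.28, 0.181). Merging peaks within 500 bp joined it to the upstream regions at Emilin1, Ost4 and Agbl5. The joined region was not called (0.17, 0.320), and its value is not one of the start region by itself.

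Gpi1, glucose-6-phosphate isomerase, turns glucose 6-phosphate into fructose 6-phosphate (Entrez 14751, chr7:34201327-34230336, minus strand). Its start region, chr7:34224597-34231065, lies at no other gene's end. There d22 held 167 to 241 CPM (median 183) and pbs 87.9 to 148. All d22 libraries exceeded all pbs libraries, with pbs 1 the highest of its group. The means were 194 ± 30.7 and 109 ± 24.4 (SD, n = 6), a difference of 0.81 ± 0.13 (1.75-fold; edgeR adjusted p = 0.00626). With the 49-base libraries alone it was 0.91 (0.0249). The neighbouring regions of the window, at the ends of Garre1 and Pdcd2l, differed by -0.11 ± 0.08 and 0.25 ± 0.12 and were not called.

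The last called base at Gpi1 lay 4890 to 5739 bp past the start in d22 and 1206 to 4966 bp in pbs. The groups overlapped through pbs 5, whose call ended past those of d22 1 and d22 5. The called length was 4861 to 6117 bp in d22 and 1752 to 5302 bp in pbs, in 1 to 4 pieces in either group. Over 426 bp between 1949 and 4933 bp past the start, at least 5 d22 libraries and at most 1 pbs library had a call. Such bases were summed per region, whether or not they were continuous. Of the 12375 regions with a peak in every library, 6.19% held some such bases and 0.218% at least as many. The difference in called length was 0.77 ± 0.21 and did not pass (limma adjusted p = 0.405), and the density was nearly level at 36.1 ± 7.57 and 34.4 ± 8.91 CPM per kb (SD, n = 6; difference 0.08 ± 0.15). Over the window, which also holds the 2 flanking regions, Gpi1 held 199 to 245 CPM in d22 and 147 to 188 in pbs without overlap (0.41 ± 0.08, 1.33-fold, edgeR adjusted p = 0.0258). Of all windows 1.29% had groups without overlap, 0.556% with every d22 library above every pbs library. The window lost its call with library totals (0.20, adjusted p = 0.367), with the 49-base libraries alone (0.41, 0.127), and without d22 6, pbs 2, pbs 3, pbs 4 or pbs 5 (0.0558 to 0.0696).

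Pfkl is the liver subunit of phosphofructokinase, which commits sugar to glycolysis (Entrez 18641, chr10:77986947-78009807, minus strand). The start region, chr10:78007229-78010963, held 57.9 to 74.0 CPM in d22 (median 68.8) and 53.9 to 90.3 in pbs (median 64.4). The d22 libraries lay inside the range of pbs. The difference was -0.05 ± 0.14 (edgeR adjusted p = 0.939), the called length differed by 0.01 ± 0.21 and the density by -0.01 ± 0.13. Around the start, 1066 bp were called in every library.

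Tpi1, triosephosphate isomerase, interconverts the triose phosphates of the pathway (Entrez 21991, chr6:124810586-124814158, minus strand). Its start region, chr6:124810823-124814834, covers most of this short gene and reaches the ends of Spsb2 and Usp5. It held 94.9 to 128 CPM in d22 (median 125) and 135 to 168 in pbs (median 151). All d22 libraries lay below all pbs libraries, which was so for 0.743% of all regions tested. The difference of -0.31 ± 0.09 did not pass (edgeR adjusted p = 0.126), while DESeq2 called it (-0.31, 0.0334) and so did edgeR with library totals (-0.54, 0.0255). Relative to the median of all regions with library totals, the difference was -0.32. With the 49-base libraries alone the difference was -0.20 (0.572). The next region, at the end of the gene and the start of Spsb2, differed by 0.15 ± 0.10, and the region past the end of the gene, chr6:124804684-124807513, by -0.27 ± 0.27, neither called. The window as a whole differed by -0.14 ± 0.07 (0.531).

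Eno1 encodes alpha-enolase, which makes phosphoenolpyruvate (Entrez 13806, chr4:150236708-150248879, plus strand). Its 3 RefSeq starts fall within 1 region, chr4:150235542-150243678. That region held 140 to 228 CPM in d22 (median 203) and 184 to 222 in pbs (median 202), with d22 4 lowest. The difference was -0.06 ± 0.10 (edgeR adjusted p = 0.892), and 0.05 ± 0.10 over the window. The called peak ended 3460 to 6026 bp past the start in d22 and 5257 to 6970 bp in pbs, and 5 d22 libraries ended before every pbs library. Over 457 bp from 4798 to 5254 bp past the start, at least 5 pbs libraries and at most 1 d22 library had a call. Bases of that kind, with more calls in pbs, were held by 18.7% of the 12375 regions, and at least as many in sum by 0.582%. Farther out, a region from -10550 to -7815 bp was called in 6 d22 and 2 pbs libraries. It had the smallest p of the 17 regions of the 8 genes called in 2 to 10 libraries (two-sided Fisher's exact p = 0.0606, adjusted p = 1.0), and 0 of 16871 such regions in the whole series passed by this test, with 99 at an unadjusted p under 0.05.

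Pgk1, phosphoglycerate kinase, makes the pathway's earliest ATP and lies on the X chromosome (Entrez 18655, chrX:106187100-106203699, plus strand). It had the fewest peaks, 21 over the 12 libraries, and the lowest level of the 8. The start region, chrX:106187041-106190040, held 13.3 to 32.6 CPM in d22 (median 28.1) and 26.2 to 52.9 in pbs (median 45.8). In d22 the 6 counts ran from 14 to 68 tags, so this gene rests on the thinnest data of the set. The groups overlapped, through pbs 3 as the lowest pbs library. The difference of -0.76 ± 0.21 did not pass (edgeR adjusted p = 0.108), while DESeq2 called it (-0.76, 0.0206) and so did library totals (-0.98, 0.0189). Relative to the median of all regions with library totals, the difference was -0.755. Over the window the difference was -0.73 ± 0.19 (0.0992); without pbs 3 it passed (-0.84, 0.0398). In all 6 d22 libraries the region was 1 peak of 697 to 1169 bp. In pbs it was 738 to 2537 bp in up to 3 peaks, and reached as far as 2940 bp past the start. The difference in length was -0.80 ± 0.25 (limma adjusted p = 0.537), and that in density was -0.01 ± 0.16. The called peak began at or just inside the gene: the start base itself was covered in 2 d22 and 3 pbs libraries.

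Pklr, which makes pyruvate from phosphoenolpyruvate in liver and red blood cells (Entrez 18770, chr3:89136122-89146815, plus strand), had the largest difference of the 8 genes. The start region, chr3:89135893-89140996, held 75.2 to 194 CPM in d22 (median 103) and 39.0 to 63.0 in pbs (median 46.9). Every d22 library exceeded every pbs library, with d22 4 highest of all and pbs 1 highest of its group. The means were 119 ± 44.3 and 48.6 ± 9.61 (SD, n = 6), a difference of 1.25 ± 0.20 (2.39-fold; edgeR adjusted p = 0.00599). In raw tags this was 143 to 257 in d22 and 64 to 178 in pbs. The window, where this region is the only one in all 12 libraries, held 51.4 to 119 CPM in d22 and 24.7 to 43.7 in pbs (1.26 ± 0.20, adjusted p = 0.0106). Both calls held on leaving out each library in turn, d22 4 included (window 1.10, adjusted p = 0.00743). Both were lost with the 49-base libraries alone, 6 d22 against 3 pbs, where the size was kept: 1.36 over the window (adjusted p = 0.0689) and 1.23 at the start (0.0721). No such comparison is possible within the 48-base libraries, which are all pbs.

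The 2 starts of Pklr differed in the mark. At the downstream start used in liver, at position 89136623, a peak covered the start base in all 12 libraries. Over the upstream start at 89136142 a peak was called in 1 d22 and 0 pbs libraries. The carbohydrate response pair printed above lies between these starts, before the liver start. Most libraries' peaks began between -224 and -57 bp of the liver start, d22 1 being the one with a further peak from -730 bp. On the gene side the peak ended 1666 to 4373 bp past the liver start in d22 and 932 to 3285 bp in pbs. The stretch called in every library was 990 bp, from -57 to 932. Over 961 bp between 1621 and 2765 bp, at least 5 d22 libraries and at most 1 pbs library had a call. At least as many such bases in sum were held by 0.0162% of the 12375 regions (2 regions, that of Pklr among them).

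**Figure D2:**
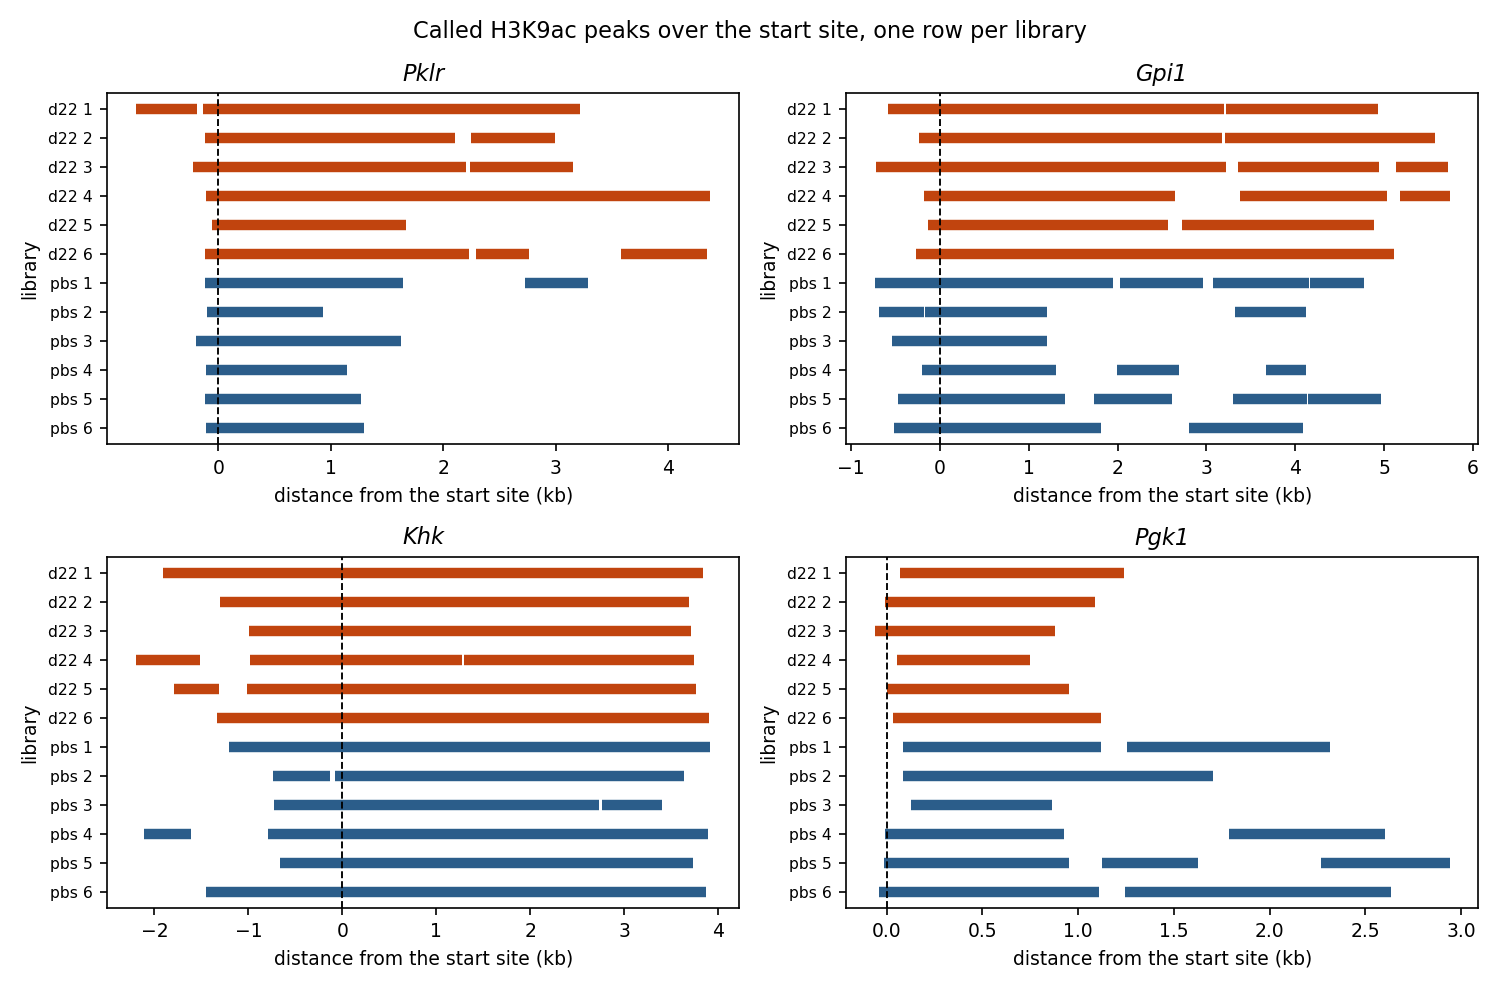
Bars are the called H3K9ac peaks of the start-site region in each of the 12 libraries, by distance from the start site in kb in the direction of transcription, for Pklr (liver start), Gpi1, Khk and Pgk1. At Pklr the calls end 1666 to 4373 bp past the start in d22 and 932 to 3285 bp in pbs, and at Gpi1 4890 to 5739 and 1206 to 4966 bp, with overlap at both; at Khk both groups cover about the same stretch, and at Pgk1 4 of the pbs libraries have further pieces past the peak at the start.

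Tags in a region grow with the width called as well as with the density of tags. At Pklr the called length was 1724 to 4478 bp in d22 and 1031 to 2324 bp in pbs, with 5 d22 libraries above the longest pbs call. That difference was 1.11 ± 0.23 (2.16-fold) and did not pass over all regions (limma adjusted p = 0.158). The density at Pklr was 35.8 ± 7.57 CPM per kb in d22 and 32.6 ± 5.86 in pbs (SD, n = 6), a difference of 0.13 ± 0.14 beside a median of 0.08 over all regions. At Gpi1 and Pgk1 the values in length were 0.77 ± 0.21 and -0.80 ± 0.25 and those in density 0.08 ± 0.15 and -0.01 ± 0.16. At Khk they were 0.14 ± 0.09 in length (limma adjusted p = 0.798) and 0.35 ± 0.12 in density. None of these passed, and neither length against density nor 1 gene against another was tested. In called length limma called 0 of 12419 windows (648 at an unadjusted p under 0.05) and 0 of 12375 regions (843), and in density 5 regions, 0.0404% (0.0323% higher and 0.00808% lower), none of them at the 8 genes. Of the 8 start regions, 3 in length and 1 in density had an unadjusted p under 0.05, beside 6.81% and 5.54% of all regions. Each library was called at its own depth against the pooled input of its title group, so the width of a call and the group's input cannot be told apart.

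**Figure D3:**
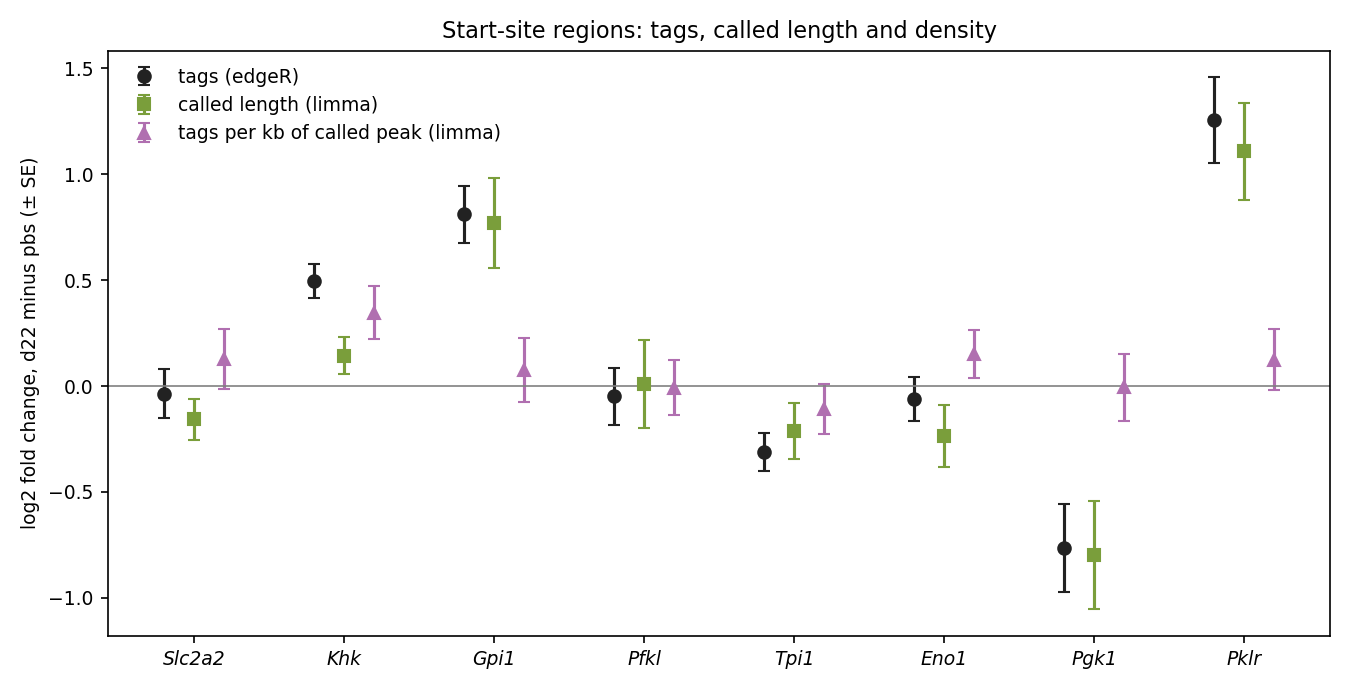
Points are log2 differences, d22 minus pbs, at the start-site region of each gene, with bars of 1 SE (6 libraries per group): tags, called length, and tags per kb of called peak. The values in tags and length are 1.25 and 1.11 at Pklr, 0.81 and 0.77 at Gpi1 and -0.76 and -0.80 at Pgk1, and the values in density are 0.13, 0.08 and -0.01; only the tags of Pklr, Gpi1 and Khk were called.

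Levels can be compared between genes only per length, as CPM per kb of called peak in the start region. In pbs the median density ran from 22.9 CPM per kb at Pgk1 through 28.5 at Pfkl, 30.6 at Pklr, 31.4 at Gpi1, 35.2 at Eno1, 38.7 at Slc2a2 and 41.1 at Khk to 46.8 at Tpi1. In d22 the order of the medians ran from Pgk1 and Pfkl (29.5) through Pklr (35.5), Gpi1 (35.5), Eno1 (38.6), Slc2a2 (39.8) and Tpi1 (45.1) to Khk (52.0). Neighbours in either order overlapped in their ranges over libraries. In pbs the range of Tpi1 (43.5 to 54.0) lay above those of Pgk1 (19.9 to 35.5), Pfkl (22.5 to 36.7), Pklr (27.1 to 40.2) and Eno1 (29.7 to 41.5). In d22 the range of Khk (44.4 to 58.3) lay above those of Pgk1 (19.1 to 33.2), Pfkl (24.1 to 31.8), Eno1 (36.2 to 43.0) and Pklr (27.8 to 43.6). Pgk1 and Pfkl also lay below Tpi1 (35.7 to 52.2) and Eno1 in d22, and Pfkl lay below Slc2a2 (32.5 to 51.2). All other pairs overlapped, and no pair of genes was tested.

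The authors' fold enrichment, the height of a peak over its local background as the peak caller gave it, was lower in d22 for the series as a whole. The highest value in a window was called lower in 21.9% of all windows and higher in 1.22%, 23.1% in all (limma), with a median of -0.31. At the 8 genes all 8 differences were negative and 3 were called lower, to be read beside that background and not as a feature of the set: Pgk1 (-0.79 ± 0.20, adjusted p = 0.00329), Pfkl (-0.74 ± 0.19, 0.00238) and Gpi1 (-0.50 ± 0.17, 0.0283). The median of all 8 differences was -0.39. At Gpi1 the highest peak of the window was the start region in all 6 d22 libraries. Among pbs libraries it was the start region in pbs 3 and pbs 6. In pbs 1, pbs 2 and pbs 4 it was the upstream region at the end of Garre1, and in pbs 5 both regions stood at 61.08. At the start region of Gpi1 itself the difference in fold enrichment was -0.31 ± 0.18 and was not called (limma adjusted p = 0.188). Pgk1 stood at 12.7 to 31.4 in d22 and 31.9 to 43.3 in pbs without overlap, as did 5.77% of all windows in this direction and 6.13% in either. Pfkl, whose tags did not pass, stood at 23.3 to 39.7 in d22 and 39.1 to 71.3 in pbs. Pklr, with the largest gain in tags, stood at 27.7 to 36.6 in d22 and 24.7 to 47.1 in pbs (-0.03 ± 0.19). Each title group has its own input, so input and group cannot be told apart in this measure. With each library centred on its median, Pgk1 (-0.48, adjusted p = 0.108) and Gpi1 (-0.19, 0.434) lost their calls; with the 49-base libraries alone all 3 did (0.0743 to 0.264). For Gpi1 the call also went when d22 3, d22 5, pbs 1 or pbs 3 was left out (up to 0.109) and in windows with no extension (-0.31, 0.185). Tpi1 (-0.39, 0.0785) and Eno1 (-0.38, 0.101) were called without d22 2 or pbs 2 (0.0270 to 0.0494). Those omissions called 34.6% and 28.9% of all windows. At Tpi1 the highest peak lay in the region at the start of Spsb2 in 5 d22 and 5 pbs libraries. In pbs 2, 1 of these 5, the start region of Tpi1 stood at the same value (52.15).

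Of 35 further genes of glycolysis, fructose use and pyruvate handling, 29 had a peak in the window in every library. edgeR called 0 of these 29 in window tags. An unadjusted p under 0.05 was reached by 4 of the 29, all 4 with negative values, beside 1344 of all 12419 windows (10.8%). These 4, named after their values were seen, were Mpc1, a subunit of the mitochondrial pyruvate carrier (-0.35, adjusted p = 0.185), Sord, which makes fructose from sorbitol (-0.29, 0.432), Glyctk, a kinase of glycerate in fructose use (-0.28, 0.271), and Aldoa (-0.16, 0.402). At Glyctk d22 held 95.0 to 149.6 CPM and pbs 155 to 173, without overlap, as did 0.733% of all windows in this direction. The values of the 29 genes were positive in 12 and negative in 17, with a median of -0.05, and ran from -0.36 at Pdk4, an inhibitor of pyruvate dehydrogenase, to 0.42 at Pfkfb4, which sets the level of a sugar phosphate that activates phosphofructokinase. Among the isozymes of the 8 genes, Pkm, the pyruvate kinase of other tissues, held 8.46 to 19.7 CPM in d22 and 9.80 to 29.6 in pbs (-0.25, 0.803). Slc2a1, the transporter GLUT1, had a value of -0.32 (0.657), Pfkm of 0.09 (0.789), Eno2 of 0.00 (0.996) and Eno3 of -0.05 (0.870). The 6 genes without a peak in every library were Hk2, Hk3, Hkdc1, Slc2a5, Pfkp and Ldhb; Slc2a5, a fructose transporter, lacked one in 1 pbs library.

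**Figure D4:**
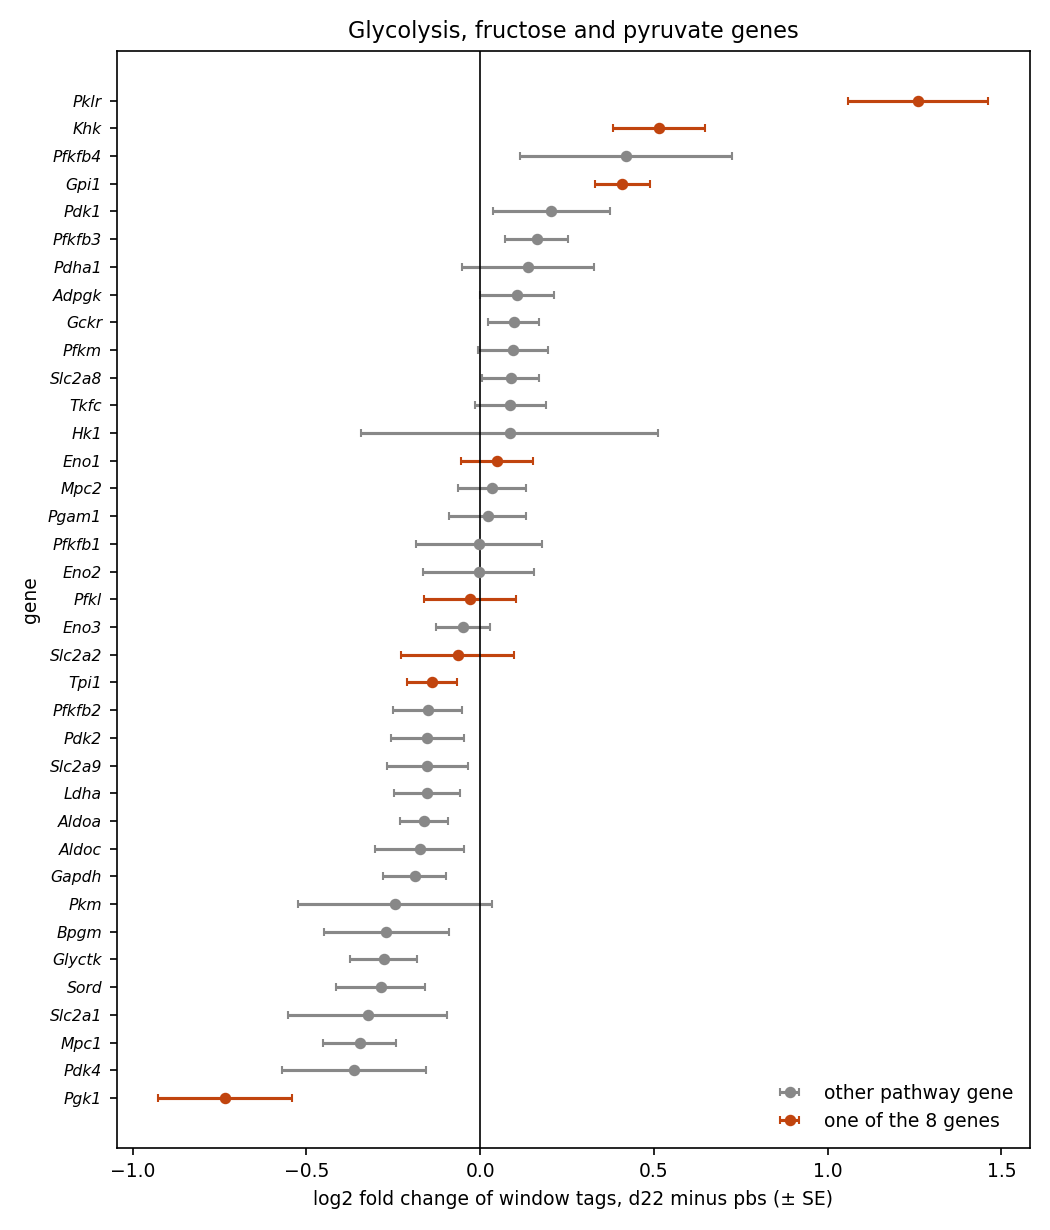
Points are log2 differences in window tags, d22 minus pbs, with bars of 1 SE (6 libraries per group), for the 8 genes and for 29 further genes of the pathway, sorted by value. Pklr at 1.26 and Pgk1 at -0.73 lie at the ends, and the 29 other genes fall between -0.36 and 0.42.

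For the 2 genes called over the window, the genes on other chromosomes with the most similar pattern were found by the root mean square difference in centred log2 CPM over the 12 libraries. For Pklr these were Thrsp, a regulator of fat synthesis (0.308), Pgd, of the pentose phosphate pathway (0.325), and Aacs, which activates acetoacetate (0.339), beside a median of 0.743 over 11844 genes. Their own differences were 1.42, 0.73 and 0.83, whose direction follows from how they were chosen. For Gpi1 they were Hcn3 (0.114), Dpcd (0.115) and Tob2 (0.116), beside a median of 0.320 over 11398 genes, with differences of 0.47, 0.39 and 0.30, likewise in the direction of the choice. The window of Hcn3, a channel gene next to Pklr, takes in the start peak of Pklr, so its likeness to Gpi1 rests in part on Pklr itself.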

How the data were processed

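The starting point was the authors' deposited table of H3K9ac peaks for each of 12 libraries. The submitters' processing notes name CASAVA 1.8, Novoalign, the build mm10 and the peak caller MACS 1.4.2. Peaks passed a p-value of 1e-05 with at most 1 tag kept per position, per the file headers, and every library of a title was set against the same pooled input (d22, 12526421 tags; pbs, 10409931 tags). Per the file headers, the columns used were the raw count of tags in each peak, the fold enrichment ratio over local background and the score, -10 times the log10 of the p-value, which set a stricter threshold of 100 in an alternative. The deposited false discovery rate in percent was not used.

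Peaks were summed per library over windows (RefSeq gene table, GRCm38.p6, 10 kb on each side; neighbouring windows share peaks) and over regions merged from overlapping peaks. A place without a call in a library has no count there, so only places called in all 12 libraries were tested for tags, length and density. Tags were tested with edgeR 4.0.16 (quasi-likelihood, robust, TMM, group as the only term) and called length, tags per kb and fold enrichment with limma 3.58.1 on log2 values, in R 4.3.3, two-sided with Benjamini-Hochberg adjustment at 0.05 over all features. Occupancy of regions with a call in 2 to 10 libraries was tested with Fisher's exact test, and values of 1 number per library the exact permutation test. Start sites and promoters came from the RefSeq promoter table of the same build. The members and lists were chosen with earlier results of these data known. All 8 members are named, with the pathway list in counts and the isozymes by value; some values of that list are not reported here. No pair of libraries was a duplicate (chi-square per degree of freedom 2.41 to 10.3 over 66 pairs). On simulated counts with these libraries' sizes, the window tag test recovered 55% of genes changed 1.5-fold and 90% of those changed 2-fold, and the region tag test 53% and 86%. Alternatives covered scaling, DESeq2 1.42.0, count and peak thresholds, window size, merging, tag length, a replicate block and leaving out each library.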

Additional observations from a re-analysis of the deposited data

Results flagged for a closer look

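In 64 groups of 6 values tested with Dixon's gap criterion (0.625), 2 held a library that stood apart, and chance alone flags about 1 in 20 groups. At Khk the highest fold enrichment in the window was 83.4 in d22 2, beside 45.5 to 57.7 in the other d22 libraries (gap over range 0.677). At the Tpi1 start region d22 4, the shallowest library, held 94.9 CPM beside 122 to 128 in the other d22 libraries (0.816). Without d22 4 the Tpi1 difference was -0.26 (edgeR adjusted p between 0.132 and 0.250 over all single omissions).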

How the results depend on the processing

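Called windows in tags (99) numbered 262 with library totals as the only scaling, 273 by DESeq2, 18 with the 49-base libraries alone, 38 with no extension of the gene, and 25 (without pbs 4) to 125 (without d22 4) on leaving out single libraries. Called regions in tags (125) numbered 454, 272 and 39 with the same totals, DESeq2 and 49-base settings, and 64 to 139 on leaving out single libraries. In called length, windows (0) numbered 29 with each library centred on its median and 0 to 1 on leaving out libraries, and regions (0) numbered 13 centred, 1 with 49-base libraries and 0 to 35 (35 without d22 1). In density (5) the count was 9 centred, 0 with 49-base libraries, 0 with stricter peaks and 0 to 5 on leaving out libraries. In fold enrichment (2869) it was 1258 centred, 632 with 49-base libraries and 1741 to 4299 on leaving out libraries. Occupancy stayed at 0 under all its settings. The hepatocyte marker difference (-121.8 tags per 1000000) ran from -137.6 to -99.6 on leaving out single libraries, an alternative chosen after seeing the data. The cause of these changes was not tested. Library totals shifted all windows by -0.20 and all regions by -0.22, and relative to that shift Pklr stood at 1.26 and 1.25. Relative to it, the start region of Khk stood at 0.50 and the window of Gpi1 at 0.40, which had lost their calls. The start regions of Tpi1 and Pgk1, called with library totals, stood at -0.32 and -0.755. Of the 454 regions called with library totals, 428 were lower in d22.

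Titles share replicate numbers, but same-numbered libraries did not deviate together (correlations of -0.074 to 0.215 over windows and -0.006 to 0.16 over regions; not every library was closest to its own number). With the replicate number as a block, called windows numbered 47 in tags, 1 in length and 1785 in fold enrichment, and regions in density 12; Gpi1 lost its window calls in tags (adjusted p = 0.0827) and in fold enrichment (0.0746).

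Signs turned only for values that had not been called. In window tags these were Slc2a2 with stricter peaks (0.0233), Pfkl with 49-base libraries (0.0716) and 25 kb (0.0222), Tpi1 with no extension (0.232), and Eno1 with library totals (-0.162), no extension (-0.0612) and 1 kb (-0.0529). In fold enrichment, centring gave Slc2a2 0.0555, Khk 0.151 and Pklr 0.273. In start tags they were Slc2a2 with peaks within 500 bp merged (0.0031), Pfkl with 49-base libraries (0.127) and Eno1 with stricter peaks (0.0207). In start density they were Slc2a2 (-0.0838), Gpi1 (-0.05) and Pklr (-0.0229) with 49-base libraries, Gpi1 with stricter peaks (-0.0681), and Tpi1 (0.0026) and Pgk1 (0.0461) merged. Merging joined the start regions of Slc2a2, Tpi1 and Pgk1 to neighbouring regions. Leaving out libraries moved window tags of Slc2a2 from -0.175 to 0.0216, Pfkl from -0.0978 to 0.0661 and Eno1 from -0.0032 to 0.119, start tags of Slc2a2 from -0.128 to 0.0247, Pfkl from -0.110 to 0.0499 and Eno1 from -0.106 to 0.0111, Pfkl length from -0.119 to 0.138, density of Pfkl from -0.0793 to 0.0617 and Pgk1 from -0.0876 to 0.092, and Pklr fold enrichment from -0.113 to 0.0736. Khk fold enrichment was called lower with 25 kb added (-0.53, limma adjusted p = 0.0156). Depth limits Pgk1 most, whose d22 counts begin at 14 tags.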
